A study of Mus musculus with 26 samples.

Results

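The comparison described here set mouse embryonic stem cells (mESCs) that expressed the E294K mutant of Prdm14 at a high level against mESCs in which Mtgr1 had been put back, both in serum+LIF. It asked whether a high level of mutant Prdm14 departs from the state of serum-grown cells. The members were the libraries labelled as E294K rescue of clones F10 and G6 (2 libraries) and as FH-Mtgr1 rescue of clones A3, C1 and C3 (3 libraries), together 5 of the 15 RNA-seq libraries and of 26 samples in all. All lines derive from the Stella:GFP line, which carries a GFP reporter of Stella (Dppa3). They were kept in 2i+LIF, a medium with inhibitors of MEK and GSK3, and then grown without feeders in serum+LIF for 5 days.

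The E294K lines are Prdm14-/- clones (CRISPR-Cas9, exon 2) given a FLAG-HA-tagged Prdm14 cDNA with the glutamate-to-lysine substitution E294K. The FH-Mtgr1 lines are Mtgr1-/- clones (CRISPR-Cas9, exon 3) given FLAG-HA-tagged wt Mtgr1. Each library comes from a single clone, so the replicates are clones. The groups share no clone and differ in the deleted gene, the transgene and the clone, and these differences cannot be told apart. Whether the lines were sequenced in separate runs is not given in the sources used here. A wt serum+LIF library (n = 1) is given beside each value as the untreated state of the parental line, and the FH-Prdm14 lines and the Prdm14-/- cells of clones F10 and G6 (2 libraries each) serve as lines named for the same clones.

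Prdm14 is a PR-domain zinc finger protein that holds mESCs in the naive state by repressing FGF signalling and the de novo DNA methyltransferases, and it is required for primordial germ cells. Mtgr1, encoded by Cbfa2t2, is a corepressor of the ETO family that recruits histone deacetylases and binds the pre-SET and SET region of Prdm14. Serum+LIF cells are a mixture in which naive and more advanced cells exchange, and many naive factors fluctuate in them, whereas 2i+LIF cells are more uniform.

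The substitution that defines the mutant lines changes a glutamate codon of Prdm14, shown here because it is the designed change between the mutant and the wt transgene. In the annotation of NCBIM37 (mm9), Prdm14 is on the minus strand of chromosome 1 (chr1:13103538-13117244), and the codon of E294K is the last codon of exon 4 of 8 (chr1:13114444-13114446). The line gives the reference coding sequence of codons 284 to 304, 5′ to 3′, joined from exon 4 (chr1:13114444-13114476) and exon 5 (chr1:13112683-13112712), with the glutamate codon that E294K changes in capitals.
Prdm14 codons 284 to 304: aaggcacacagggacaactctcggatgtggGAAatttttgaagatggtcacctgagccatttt

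Expression is given as RPKM, reads on a gene scaled to its length and to all reads on genes. In each sentence, values of the E294K lines, FH-Prdm14 lines and Prdm14-/- cells are in the order F10, G6, and those of the FH-Mtgr1 lines in the order A3, C1, C3. The reads on genes computed back from the RPKM were 16419718 and 15916798 in the E294K libraries, 13793727, 21218414 and 12729580 in the FH-Mtgr1 libraries and 15872761 in the wt library. The E294K libraries resembled each other, with a chi-square of 3.42 per degree of freedom over genes. FH-Mtgr1 A3 and C1 differed by 9.44 per degree of freedom and both stood further from C3 (21.7 and 27.7), so results are also given without C3 where that changes them. The Y-linked Ddx3y was at 0.0406 RPKM in FH-Mtgr1 C1, 8.47 RPKM in A3 and 11.1 RPKM in C3. In the Mtgr1-/- cells it was at 0.0104 RPKM in A3, 10.5 RPKM in C1 and 4.18 RPKM in C3, so that the names A3 and C1 do not match between the knockout and the rescue. As all 3 clones are in 1 group here, the group means do not depend on these names. Lines named G6 and F10 differed in this gene as well, at 0.595, 1.69 and 4.73 RPKM in Prdm14-/-, FH-Prdm14 and E294K cells of G6 and at 5.42, 1.74 and 5.32 RPKM in those of F10. Ribosomal protein genes took 7.29 and 7.38% of the reads in the E294K libraries, 10.4 to 12.4% in the FH-Mtgr1 libraries and 6.15% in the wt library. Genes under 1000 bases took 10.0% in each E294K library, 12.9 to 15.6% in the FH-Mtgr1 libraries and 8.17% in the wt library.

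Prdm14, the gene by which the mutant lines are defined, was high in both of them. It was at 89.9 and 105 RPKM in E294K, 2.52, 2.22 and 2.03 RPKM in FH-Mtgr1 and 2.77 RPKM in wt. The E294K lines (97.4 ± 10.7 RPKM, SD, n = 2) lay far above the FH-Mtgr1 lines (2.25 ± 0.245 RPKM, SD, n = 3), with a log2 fold change of 5.15 (SE 0.13, adjusted p = 3.42e-05 in limma with Benjamini-Hochberg adjustment). Prdm14 was at 79.8 and 116 RPKM in the FH-Prdm14 lines and 3.605 and 1.96 RPKM in Prdm14-/- cells, where the edited gene still gives transcript. Reads of the transgene and of the edited gene cannot be told apart in these values, so RPKM is no measure of mutant protein. Cbfa2t2, whose transgene the FH-Mtgr1 lines carry, was at 32.6 and 31.4 RPKM in E294K, 27.96, 26.7 and 25.5 RPKM in FH-Mtgr1 and 40.7 RPKM in wt. All E294K values lay above all FH-Mtgr1 values, and the difference of 0.26 on the log2 scale did not pass the threshold (adjusted p = 0.0645, limma, Benjamini-Hochberg), but did so without FH-Mtgr1 C3 (0.22).

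The test covered 12339 genes that reached an RPKM of 1 in 2 or more of the 5 libraries. Of these 4958 (40.2%) passed limma's test at a Benjamini-Hochberg adjusted p below 0.05, and only these are called higher or lower. In the E294K lines 2792 genes (22.6%) were higher and 2166 (17.6%) lower. In bulk RNA, fewer cells with a gene on and less RNA per cell cannot be told apart. Most called differences were under 2-fold. The median log2 fold change was 0.69 among the higher and -0.70 among the lower genes, 1779 calls were under 1.5-fold, and 585 higher and 440 lower genes differed at least 2-fold. In 158 of the higher genes all FH-Mtgr1 libraries were under 1 RPKM, and in 235 of the lower genes both E294K libraries were. The groups did not overlap in 8246 genes (66.8%), among them all 4958 called genes. The median over all genes tested was 0.03, and median-of-ratios scaling in place of the total moved all values by -0.04 and the split to 2538 higher and 2400 lower. Without E294K F10 or G6 the count was 1391 or 1379, and without FH-Mtgr1 C3 it was 7102.

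**Figure D1:**
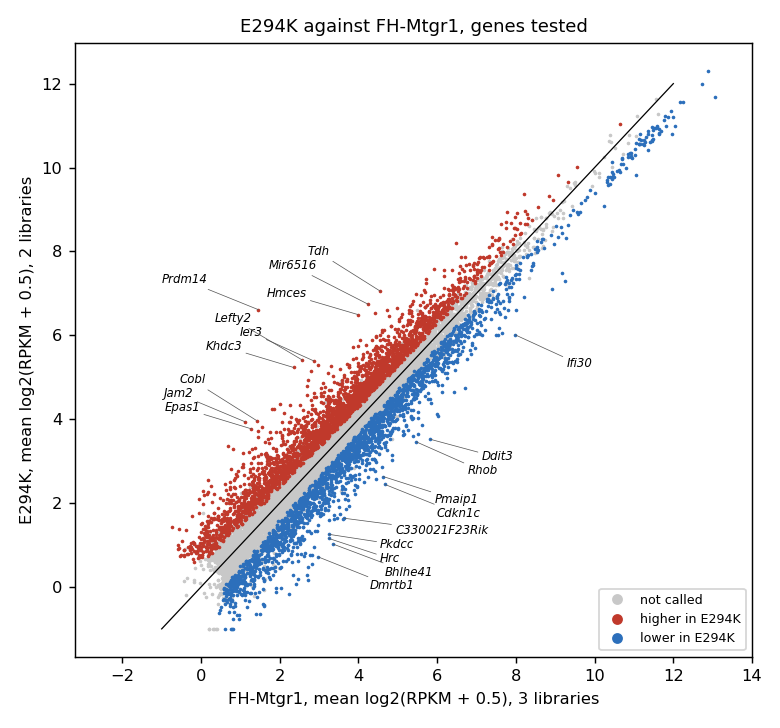
Mean log2(RPKM + 0.5) of the 2 E294K libraries (y axis) against that of the 3 FH-Mtgr1 libraries (x axis) for the 12339 genes tested, with genes called higher in E294K in red (2792), lower in blue (2166) and others in grey, and with the line of equality. The 10 called genes that changed most in each direction at a mean RPKM of 5 or more are named, and Prdm14 lies farthest above the line.

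The label of the FH-Mtgr1 lines as like the wt was checked against the wt serum+LIF library. The root mean square difference of log2 values over the genes tested was 0.22 between the E294K libraries and 0.27 to 0.42 between FH-Mtgr1 libraries. Between an E294K and an FH-Mtgr1 library it was 0.61 to 0.69. From the wt library it was 0.46 and 0.48 to the E294K libraries and 0.49 to 0.60 to the FH-Mtgr1 libraries. By this measure the FH-Mtgr1 lines were not nearer to the wt library than the E294K lines were, although all lay nearer to it than to any Prdm14-/- library. The distances have no test, as there is 1 wt library.

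**Figure D2:**
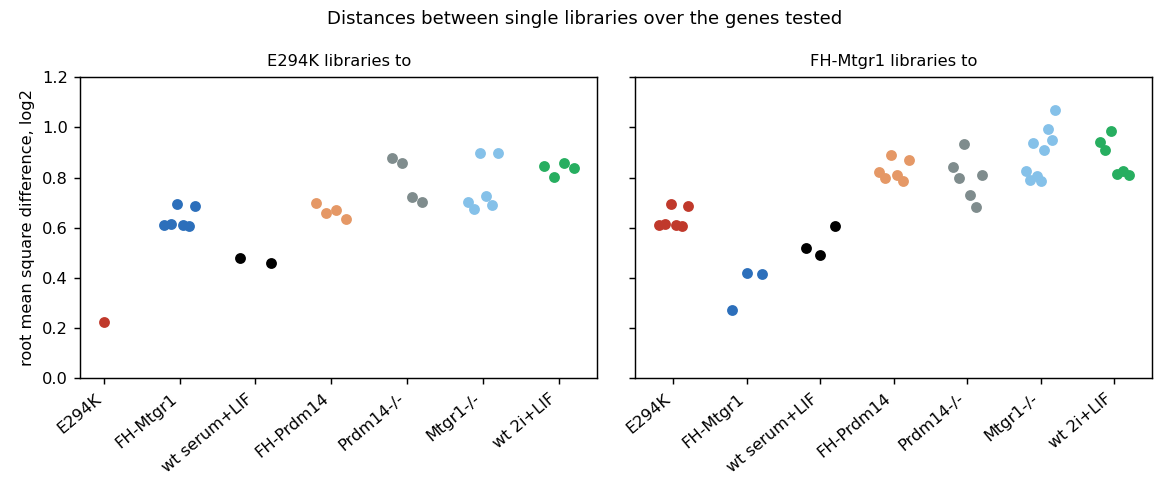
Root mean square difference of log2(RPKM + 0.5) over 12339 genes (y axis) between each E294K library (left) or FH-Mtgr1 library (right) and each library of the group on the x axis, 1 point per pair. The E294K libraries lie nearest to each other (0.22) and next to the wt serum+LIF library (0.46 and 0.48).

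Of the 4958 called genes, the wt library was nearer to the E294K mean in 2796 (56.39% of them and 22.7% of all genes tested). It was so in 66.62% of the genes higher in the E294K lines and in 43.21% of the lower ones. Counts with the wt library in the reference were lower. With FH-Mtgr1 and the wt library together as reference, 1554 genes (12.6%) passed the same limma test, 735 higher (5.96%) and 819 lower (6.64%), and all 1554 were also called in the same direction against the FH-Mtgr1 lines alone. Against the wt library alone, a reference chosen after the data were seen, 15 genes passed (0.122%; 1875 at an unadjusted p under 0.05), with the spread taken from all 15 RNA-seq libraries. Both the reference and the source of the spread differ in that count, and the FH-Mtgr1 comparison gave 3546 genes with all 15 libraries in the fit. These were Prdm14, Atp5g3, Bloc1s1, Bola2, Eif4g3, Lrp2, Neat1, Nrk, Polr2l, Sft2d1, Snrpf, Srsf9 and Tagln (higher) and Ercc5 and Sgce (lower), all passing genes being named. Each gene group is therefore also counted against the FH-Mtgr1 and wt libraries together. In that fit the wt library is 1 more library of the reference group, so its distance from the FH-Mtgr1 lines adds to the spread. Klf4 kept a log2 fold change of 1.86 there, but its SE was 0.51 in place of 0.11 (adjusted p = 0.0511, limma, Benjamini-Hochberg). A gene that did not pass in it is thus not shown to be unchanged.

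The naive factors, transcription factors and signals of the ground state, were mostly higher in the E294K lines. Of 16 members tested 13 were higher and 1 lower (median log2 fold change 1.35), against 22.6 and 17.6% of all genes. Nr0b1 (Dax1), a nuclear receptor that partners Oct4, was at 33.6 and 36.4 RPKM in E294K, 4.53, 4.52 and 12.7 RPKM in FH-Mtgr1 and 28.6 RPKM in wt. It had the largest difference of the list (log2 fold change 2.35, SE 0.41), with clone C3 the highest of its group. Klf4, a Stat3 target that can replace other naive factors, was at 35.9 and 42.3 RPKM in E294K, 7.24, 7.26 and 7.61 RPKM in FH-Mtgr1 and 28.003 RPKM in wt. Its log2 fold change was 2.33 (SE 0.11, adjusted p = 0.000546, limma, Benjamini-Hochberg), and the wt value lay between the groups, nearer to the E294K lines. Nr5a2, a driver of Oct4 expression, was at 6.73 and 6.402 RPKM in E294K, 1.11, 1.38 and 1.0998 RPKM in FH-Mtgr1 and 4.62 RPKM in wt (2.06 on the log2 scale). Gbx2, a homeobox factor downstream of LIF, was at 5.99 and 6.71 RPKM in E294K, 1.23, 1.49 and 1.55 RPKM in FH-Mtgr1 and 4.83 RPKM in wt (1.84). In both, every E294K library exceeded every FH-Mtgr1 library and the wt library lay between the groups.

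Zfp42 (Rex1), a marker of the naive state, was at 278 and 313 RPKM in E294K, 84.5, 94.7 and 85.5 RPKM in FH-Mtgr1 and 184 RPKM in wt. Its log2 fold change was 1.74 (SE 0.10), and the E294K lines were above the wt library as well. Esrrb, an orphan nuclear receptor of the naive network, was at 83.1 and 88.1 RPKM in E294K, 32.6, 30.1 and 37.1 RPKM in FH-Mtgr1 and 92.2 RPKM in wt (1.35, SE 0.11). Here the wt library was above both E294K lines, and the difference from that library alone was -0.11. Tet2, a 5-methylcytosine dioxygenase, was at 19.7 and 19.6 RPKM in E294K, 6.29, 6.36 and 6.89 RPKM in FH-Mtgr1 and 17.8 RPKM in wt (1.53). Klf2, a naive factor stabilised by MEK inhibition, was at 78.3 and 82.4 RPKM in E294K, 50.7, 38.7 and 16.6 RPKM in FH-Mtgr1 and 112 RPKM in wt. Clone C3 was the lowest and the wt library the highest, the log2 fold change was 1.32 (SE 0.42, adjusted p = 0.0442, limma, Benjamini-Hochberg), and the call was lost without either E294K line or without FH-Mtgr1 C1, while the difference from the wt library alone was -0.48. Nanog (0.98), Tfcp2l1 (1.02), Tcl1 (1.35), Klf5 (1.37) and Fgf4 (0.60) were higher too.

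Tbx3 and Dppa5a did not pass. Tbx3, a T-box factor of the naive network, was at 20.7 and 24.4 RPKM in E294K, 15.2, 16.96 and 31.2 RPKM in FH-Mtgr1 and 16.9 RPKM in wt. The groups overlapped because clone C3 was the highest value, and without C3 Tbx3 passed (0.47). Dppa3 (Stella), a maternal factor that protects methylation and the gene behind the reporter, was the 1 lower member, at 21.2 and 18.9 RPKM in E294K, 39.4, 35.9 and 34.4 RPKM in FH-Mtgr1 and 19.5 RPKM in wt (-0.85). The E294K lines lay on either side of the wt library and the FH-Mtgr1 lines were above both. Against the FH-Mtgr1 and wt libraries together, 3 members were higher (Zfp42, Klf5 and Tcl1), none lower, and the median was 1.07. Both E294K libraries were above the wt library in 12 of 16 members and below it in 3, beside 4679 and 6352 of all 12339 genes tested. The median difference from the wt library was 0.32 for the E294K lines and -1.0 for the FH-Mtgr1 lines, so most of the difference in this list lay between the FH-Mtgr1 lines and the wt library.

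**Figure D3:**
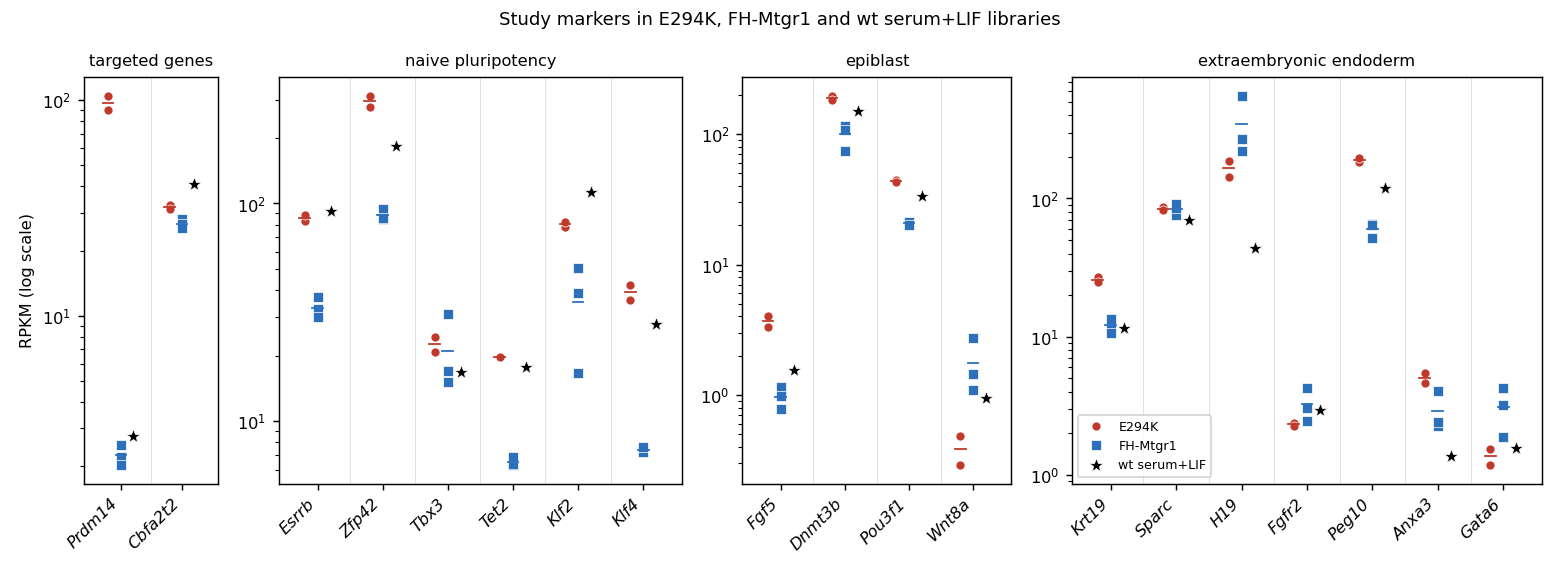
RPKM on a log scale (y axis) of the targeted genes and of the naive, epiblast and extraembryonic endoderm markers that the study names, 1 point per E294K (red circles), FH-Mtgr1 (blue squares) and wt serum+LIF (black star) library, with a line at each group mean. In Esrrb and Klf2 the wt library is above both groups, and in Klf4, Tet2 and Zfp42 it is above the FH-Mtgr1 lines and below the E294K lines.

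General pluripotency genes, which naive and primed cells share, were all detected in each library. Oct4 (Pou5f1) was at 728 and 780.3 RPKM in E294K, 603, 631 and 647 RPKM in FH-Mtgr1 and 585 RPKM in wt, and its difference of 0.27 did not pass. Of 12 members 6 were higher and none lower (median 0.56), against 22.6 and 17.6% of all genes. Among the higher members were Dppa2 (1.36), Trim28 (1.15), Tdgf1 (0.95), Sall4 (0.85) and Sox2 (0.80). Trim28 (Kap1), the corepressor that silences retroviral elements, was at 643 and 678 RPKM in E294K, 292, 294.3 and 303 RPKM in FH-Mtgr1 and 401 RPKM in wt. The groups stood well apart, with the wt library between them, and Trim28 and Sall4 were also higher against both references together. The median difference of the list from the wt library was 0.06 for the E294K lines and -0.37 for the FH-Mtgr1 lines.

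Formative and primed epiblast genes were also more often higher than lower, with 8 higher and 1 lower of 15 (median 0.65), and without either E294K line 5 were higher and none lower. Over all genes 22.6% were higher and 17.6% lower. Fgf15, a secreted FGF, was at 18.7 and 17.9 RPKM in E294K, 4.73, 2.74 and 2.04 RPKM in FH-Mtgr1 and 15.4 RPKM in wt (2.42). Foxd3, a forkhead factor of the move from naive to primed cells, was at 19.9 and 20.4 RPKM in E294K, 4.06, 3.67 and 2.85 RPKM in FH-Mtgr1 and 8.79 RPKM in wt (2.37). Lef1, an effector of Wnt signalling, was at 8.97 and 8.11 RPKM in E294K, 2.77, 2.54 and 1.83 RPKM in FH-Mtgr1 and 5.25 RPKM in wt (1.66). All E294K values lay above the wt library in these genes, and the wt library lay above all FH-Mtgr1 values. Fgf5, the classical marker of post-implantation epiblast, was at 4.04 and 3.34 RPKM in E294K, 0.782, 1.15 and 0.973 RPKM in FH-Mtgr1 and 1.56 RPKM in wt (1.52, SE 0.18). Pou3f1 (Oct6), an early epiblast factor, was at 44.3 and 43.2 RPKM in E294K, 21.1, 21.3 and 20.2 RPKM in FH-Mtgr1 and 33.3 RPKM in wt (1.05). Dnmt3b, a de novo methyltransferase of the epiblast, was at 198 and 182 RPKM in E294K, 116, 107 and 74.8 RPKM in FH-Mtgr1 and 149.5 RPKM in wt (0.95), and its call was lost without either E294K line. Naive and epiblast markers were thus both higher in the same lines. Wnt8a, a Wnt ligand of the epiblast and primitive streak, was lower, at 0.481 and 0.289 RPKM in E294K, 1.098, 1.46 and 2.74 RPKM in FH-Mtgr1 and 0.954 RPKM in wt (-1.30), also a call lost without either E294K line. Otx2, the factor that drives the primed state, was at 68.6 and 64.6 RPKM in E294K, 64.4, 70.97 and 64.2 RPKM in FH-Mtgr1 and 66.6 RPKM in wt. Its values overlapped fully (0.00). Fgf5, Pou3f1, Lef1 and Foxd3 were the members higher against both references together.

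The LIF pathway, which keeps Klf4 and other naive genes on, had 8 higher and 1 lower member of 11 (median 0.56), against 22.6 and 17.6% of all genes. The median difference from the wt library was 0.09 for the E294K lines and -0.57 for the FH-Mtgr1 lines. Most of the difference in this list thus lay between the FH-Mtgr1 lines and the wt library. Both E294K libraries were above the wt library in 7 of 11 members and below it in 4. Bcl3, a nuclear IkB-like coactivator, was at 21.9 and 23.2 RPKM in E294K, 8.73, 9.61 and 4.195 RPKM in FH-Mtgr1 and 11.4 RPKM in wt (1.60). Lifr, the receptor subunit specific to LIF, was at 11.1 and 10.4 RPKM in E294K, 4.08, 4.48 and 3.54 RPKM in FH-Mtgr1 and 8.46 RPKM in wt (1.31). Stat3 itself (0.46) and its feedback inhibitor Socs3 (0.63) were higher too. Jak1, the receptor kinase, was lower (-0.54). Without either E294K line 2 members were higher and none lower, and against both references together 1 was higher (Bcl3) and 1 lower (Jak1).

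**Figure D4:**
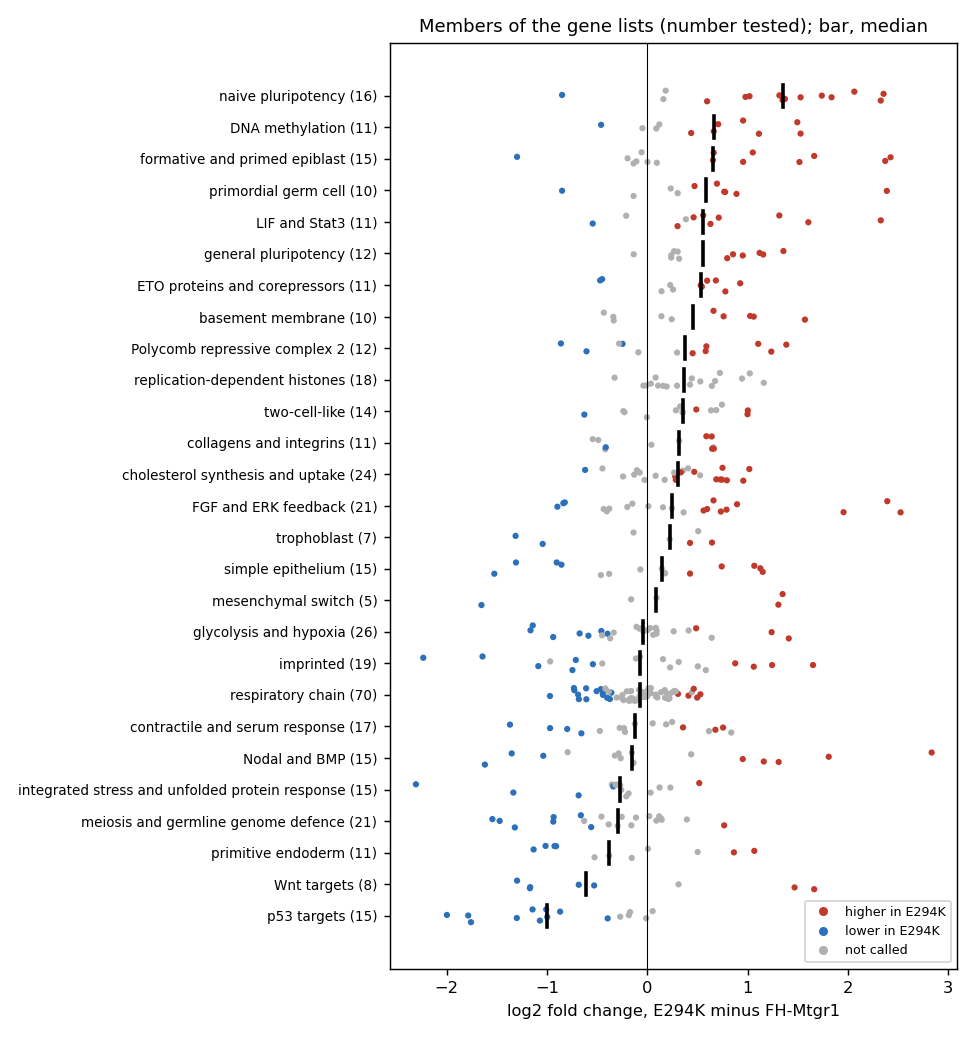
Log2 fold change of E294K against FH-Mtgr1 (x axis) for each member of the gene lists with 5 or more members tested (y axis, with the number tested), coloured red where higher, blue where lower and grey where not called, with a bar at the median. The list medians run from -0.997 for p53 targets to 1.35 for naive pluripotency, beside 0.03 over all genes.

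Genes activated by the tumour suppressor p53 were lower in the E294K lines. Of 15 tested 10 were lower and none higher (median -0.997), against 17.6% of all genes lower. Pmaip1 (Noxa), a pro-apoptotic BH3-only protein, was at 5.99 and 5.42 RPKM in E294K, 19.6, 20.9 and 34.7 RPKM in FH-Mtgr1 and 18.2 RPKM in wt (-1.997, SE 0.24). Cdkn1a (p21), the inhibitor of cyclin-dependent kinases that p53 induces, was at 25.9 and 23.2 RPKM in E294K, 77.9, 75.4 and 107 RPKM in FH-Mtgr1 and 46.4 RPKM in wt (-1.78, SE 0.17, adjusted p = 0.000958, limma, Benjamini-Hochberg). Plk2, a polo-like kinase, was at 14.4 and 13.5 RPKM in E294K, 36.3, 40.1 and 77.1 RPKM in FH-Mtgr1 and 35.2 RPKM in wt (-1.76). In these 3 genes clone C3 was the highest value and the E294K lines were the lowest, below the wt library too. Phlda3, an inhibitor of Akt, was at 47.04 and 46.04 RPKM in E294K, 98.3, 101 and 155 RPKM in FH-Mtgr1 and 62.4 RPKM in wt (-1.30). Mdm2, the ubiquitin ligase that degrades p53, was at 41.3 and 40.1 RPKM in E294K, 65.6, 75.2 and 113 RPKM in FH-Mtgr1 and 67.5 RPKM in wt (-1.01). Trp53inp1 (-1.14), Ccng1 (-1.07), Bbc3 (Puma, -0.997), Eda2r (-0.87) and Ei24 (-0.40) were the other lower members. The E294K pair stayed within a few RPKM of each other in each of these genes.

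Bax, the effector of mitochondrial apoptosis, did not pass (0.05), nor did Sesn1, Sesn2, Zmat3 and Perp. Without C3 the count was still 10 lower, with a median of -0.78, and it was 5 without E294K F10 and 6 without E294K G6. Both E294K libraries were below the wt library in 14 of 15 members, the exception being Bax, beside 6352 of all 12339 genes tested. The median difference from the wt library was -0.61 for the E294K lines and 0.18 for the FH-Mtgr1 lines, beside -0.07 and -0.11 over all genes. Against both references together 8 were lower and none higher. None passed against the wt library alone, where 15 of all genes passed. The E294K mean was below both the Prdm14-/- and the FH-Prdm14 mean in 13 of 15 members, beside 4424 of all 12339 genes tested. Cdkn1a was at 66.5 and 62.1 RPKM in the FH-Prdm14 lines and 98.4 and 97.8 RPKM in Prdm14-/- cells, and Pmaip1 at 12.7 and 13.8 RPKM and 15.1 and 13.1 RPKM. In each group the lines stood apart from the E294K lines, which had the lowest values of both genes. The activity of p53 itself was not measured.

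**Figure D5:**
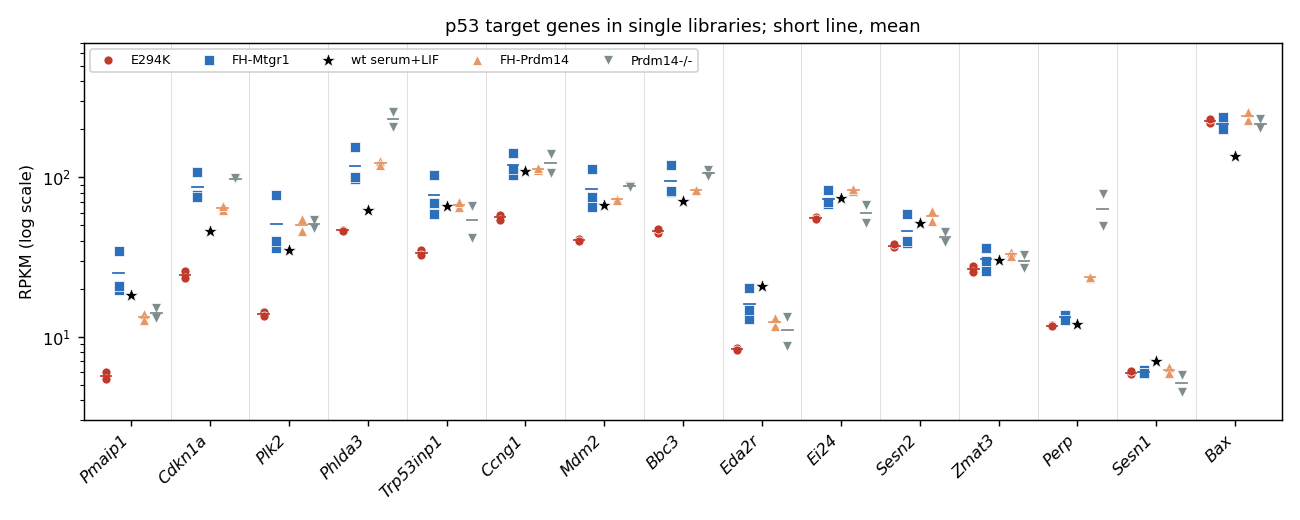
RPKM on a log scale (y axis) of the 15 p53 target genes tested (x axis, by log2 fold change), 1 point per library of the E294K, FH-Mtgr1, wt serum+LIF, FH-Prdm14 and Prdm14-/- groups, with a line at the mean of each group with 2 or more libraries. From Pmaip1 to Ei24 the E294K libraries lie below the FH-Mtgr1 and wt libraries, and in Bax they lie among the FH-Mtgr1 libraries and above the wt library.

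Genes of the integrated stress and unfolded protein responses had 4 lower and 1 higher (Xbp1) members of 15 (median -0.27). In all this share was below the 40.2% of all genes called. Ddit3 (Chop), the factor of the unfolded protein response that promotes cell death, was at 10.9 and 11.04 RPKM in E294K, 50.4, 40.2 and 87.7 RPKM in FH-Mtgr1 and 29.1 RPKM in wt (-2.31, SE 0.30). The E294K lines were the lowest and clone C3 the highest. Herpud1, which works in degradation from the endoplasmic reticulum, was at 5.89 and 5.94 RPKM in E294K, 16.4, 16.5 and 14.3 RPKM in FH-Mtgr1 and 16.8 RPKM in wt (-1.34). Atf4, the central factor of the integrated stress response, was at 118 and 113 RPKM in E294K, 139, 120.2 and 170.2 RPKM in FH-Mtgr1 and 165 RPKM in wt, a difference of -0.30 that did not pass. Both Ddit3 and Herpud1, and no other member, were lower against both references together, and without either E294K line 2 members were lower and none higher.

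Among FGF and ERK genes, the pathway that Prdm14 restrains, 9 of 21 were higher and 3 lower (median 0.24), against 22.6 and 17.6% of all genes. Ier3, an immediate early gene, was at 42.8 and 40.002 RPKM in E294K, 7.38, 6.53 and 6.49 RPKM in FH-Mtgr1 and 12.4 RPKM in wt (2.52, SE 0.11). Myc, the proto-oncogene that LIF and ERK both induce, was at 17.8 and 19.1 RPKM in E294K, 3.51, 3.58 and 2.39 RPKM in FH-Mtgr1 and 6.88 RPKM in wt (2.39, SE 0.18). Spry4, a feedback inhibitor of ERK, was at 38.4 and 37.5 RPKM in E294K, 9.79, 8.13 and 10.5 RPKM in FH-Mtgr1 and 35.2 RPKM in wt (1.95). In Ier3 and Myc both E294K lines exceeded the wt library as well, whereas Spry4 was about as high in the wt library as in the E294K lines. Dusp4, a nuclear ERK phosphatase, was lower, at 20.4 and 21.7 RPKM in E294K, 37.3, 42.8 and 38.7 RPKM in FH-Mtgr1 and 29.1 RPKM in wt (-0.90), while Dusp6, the cytoplasmic ERK phosphatase, was higher (0.56). Feedback genes therefore differed in both directions. Against both references together Ier3, Myc, Spry2 and Dusp6 were higher and Fgfr4 and Dusp4 lower. Fgfr1 and Fgfr2, the receptors repressed by Prdm14, did not pass. Fgfr1 was at 15.1 and 16.2 RPKM in E294K, 25.5, 28.1 and 13.5 RPKM in FH-Mtgr1 and 15.01 RPKM in wt and Fgfr2 at 2.38 and 2.28 RPKM in E294K, 2.44, 3.05 and 4.28 RPKM in FH-Mtgr1 and 2.95 RPKM in wt, with overlap in Fgfr1 through C3. Leaving out either E294K line left 5 members of the list higher, and without C3 11 were higher and 5 lower.

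Genes of DNA methylation had 7 higher and 1 lower member of 11 (median 0.66), against 22.6 and 17.6% of all genes. The writers Dnmt1 (1.11), Dnmt3b (0.95), Dnmt3l (0.71) and Dnmt3a (0.66), the maintenance partner Uhrf1 (0.44) and the erasers Tet1 (1.49) and Tet2 (1.53) were all higher. Tet1 was at 64.8 and 57.9 RPKM in E294K, 19.002, 23.8 and 21.8 RPKM in FH-Mtgr1 and 59.8 RPKM in wt. Dnmt1 was at 88.4 and 87.6 RPKM in E294K, 43.4, 43.97 and 34.7 RPKM in FH-Mtgr1 and 71.5 RPKM in wt. In both the wt library lay nearer to the E294K lines. The median difference of the list from the wt library was 0.19 for the E294K lines and -0.475 for the FH-Mtgr1 lines. Writers and erasers thus differed in the same direction, except that Tet3 was lower (-0.46). No member passed against both references together, and without E294K F10 or G6 the higher members were 4 or 3.

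In Polycomb repressive complex 2, which methylates lysine 27 of histone H3, 6 members were higher and 3 lower of 12 (median 0.37). Over all genes 22.6% were higher and 17.6% lower. The accessory subunits Jarid2 (1.38), E130012A19Rik (1.23) and Phf19 (1.10) had the largest increases. Jarid2 was at 105 and 108 RPKM in E294K, 35.97, 42.4 and 43.2 RPKM in FH-Mtgr1 and 69.3 RPKM in wt. The core catalytic subunit Ezh2 was slightly lower, at 73.7 and 74.6 RPKM in E294K, 88.8, 86.5 and 88.98 RPKM in FH-Mtgr1 and 92.3 RPKM in wt (-0.25), Ezh1 (-0.61) and the accessory Phf1 (-0.86) were lower too, and the core subunit Eed was higher (0.58). Core and accessory subunits did not move as 1 block. Jarid2 and E130012A19Rik were higher and Ezh1 lower against both references together. Without E294K F10 or G6, 2 or 3 members were higher and none lower, and without FH-Mtgr1 C1 3 were higher and 1 lower.

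The list of ETO proteins, Cbfa2t2 among them, and of the corepressors that work with them had 6 higher and 2 lower members of 11 (median 0.53). Over all genes 22.6% were higher and 17.6% lower. Hdac1 (0.93) and Hdac3 (0.78), the histone deacetylases, Gps2 (0.68) and Sin3a (0.60) had the largest differences. Hdac3, the deacetylase of the NCoR complex, was at 46.2 and 43.96 RPKM in E294K, 28.2, 26.5 and 23.7 RPKM in FH-Mtgr1 and 34.7 RPKM in wt. The groups did not overlap in Hdac3 and the wt library lay between them. Tbl1x (-0.47) and Sin3b (-0.45) were lower. Hdac1, Hdac3 and Gps2 were higher against both references together. The median difference of the list from the wt library was 0.18 for the E294K lines and -0.33 for the FH-Mtgr1 lines. Leaving out either E294K line left 2 higher and none lower, and without FH-Mtgr1 A3 or C1 none was lower.

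Of 15 Wnt target genes 8 passed the filter, and of these 5 were lower and 2 higher (median -0.61). The shares over all genes were 17.6% lower and 22.6% higher. With a filter at an RPKM of at least 5, 3 members were tested, 2 of them lower and 1 higher. Rnf43, a ubiquitin ligase that removes Wnt receptors, was at 0.579 and 0.627 RPKM in E294K, 1.85, 1.74 and 2.39 RPKM in FH-Mtgr1 and 1.97 RPKM in wt (-1.17). Axin2, the common readout of beta-catenin activity, was at 4.19 and 3.76 RPKM in E294K, 6.95, 7.62 and 5.63 RPKM in FH-Mtgr1 and 4.56 RPKM in wt (-0.68). Lef1 and Notum (1.47), a secreted Wnt inhibitor, were higher, so target genes of the pathway went both ways. Against both references together Rnf43, Nkd1 and Tcf7 were lower and Lef1 and Notum higher, and without either E294K line 1 was lower and 2 higher.

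Nodal and BMP genes had 5 higher and 3 lower members of 15 (median -0.15), against 22.6 and 17.6% of all genes. Lefty2, a secreted antagonist and target of Nodal, was at 40.8 and 43.1 RPKM in E294K, 7.57, 5.75 and 3.703 RPKM in FH-Mtgr1 and 7.24 RPKM in wt (2.83, SE 0.25). The wt library lay within the range of the FH-Mtgr1 lines, and Prdm14-/- cells were at 39.3 and 42.4 RPKM, like the E294K lines. Its neighbour and relative Lefty1 was at 21.8 and 25.7 RPKM in E294K, 38.2, 27.4 and 22.2 RPKM in FH-Mtgr1 and 20.6 RPKM in wt, with overlap and no call (-0.27). Nodal itself did not pass (-0.14). Bmp4, a ligand that induces Id genes, was at 11.2 and 13.9 RPKM in E294K, 2.58, 2.96 and 4.34 RPKM in FH-Mtgr1 and 5.72 RPKM in wt (1.81). Bmp7, another ligand, was lower, at 1.93 and 2.09 RPKM in E294K, 7.45, 6.54 and 7.64 RPKM in FH-Mtgr1 and 5.48 RPKM in wt (-1.62). Id1 (-0.32), Id2 (-0.79) and Id3 (-0.29), direct BMP targets, did not pass, with C3 the lowest FH-Mtgr1 value in each. The inhibitory Smad7 was higher (1.16) and Smad6 lower (-1.04). Lefty2, Bmp4 and Smad7 were higher and Bmp7 and Smad6 lower against both references together. Without E294K G6 3 members of the list were higher, and without C3 7 were lower.

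Primitive endoderm genes had 4 lower and 2 higher members of 11 tested (median -0.38), and 5 of the 16 in the list were below the filter. Over all genes 17.6% were lower and 22.6% higher. The median difference of the list from the wt library was 0.0015 for the E294K lines and 0.63 for the FH-Mtgr1 lines. Most of the difference in this list thus lay between the FH-Mtgr1 lines and the wt library. The lineage factors Gata4 (-1.01) and Gata6 (-0.91) and the receptor Pdgfra (-1.13) were lower and stayed under 6 RPKM in all 5 libraries. Gata6 was at 1.54 and 1.18 RPKM in E294K, 1.88, 3.202 and 4.28 RPKM in FH-Mtgr1 and 1.56 RPKM in wt. Its groups did not overlap, and its call was lost without E294K F10 or G6 or FH-Mtgr1 C1. Krt19, a keratin of extraembryonic endoderm and epithelium, was higher, at 26.9 and 24.7 RPKM in E294K, 12.4, 13.4 and 10.6 RPKM in FH-Mtgr1 and 11.5 RPKM in wt (1.07, SE 0.13). The wt library lay among the FH-Mtgr1 lines here. Anxa3, an annexin of the same marker set, was at 5.49 and 4.64 RPKM in E294K, 2.27, 2.42 and 4.03 RPKM in FH-Mtgr1 and 1.38 RPKM in wt. Its log2 fold change of 0.74 passed narrowly (adjusted p = 0.0442, limma, Benjamini-Hochberg), and not without any 1 of E294K F10, E294K G6, FH-Mtgr1 A3 or FH-Mtgr1 C1. Sparc, a matrix protein of parietal endoderm, was at 86.5 and 82.2 RPKM in E294K, 75.5, 85.3 and 91.97 RPKM in FH-Mtgr1 and 69.8 RPKM in wt, with no difference beyond the spread (0.01). H19, an imprinted noncoding RNA, was at 187 and 143 RPKM in E294K, 221, 268 and 555 RPKM in FH-Mtgr1 and 43.7 RPKM in wt. All E294K and FH-Mtgr1 values exceeded the wt library, the difference between the groups did not pass (-0.97), and it did without C3 (-0.57). Krt19 was the 1 member higher against both references together and none was lower, and without E294K G6 no member was lower against the FH-Mtgr1 lines.

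Lists of other lineages were counted in the same way, beside 22.6% higher and 17.6% lower over all genes tested. Of the primitive streak and mesoderm list 3 of 12 genes passed the filter and 1 (Tbx6, -0.78) was lower, and of the neural list 2 of 10 passed and 1 (Tubb3, 1.89) was higher. Of 10 fibroblast genes 4 passed the filter, and Thy1 (-0.96) and Loxl1 (-0.75) were lower. Of the trophoblast list 7 of 12 passed, with Krt7 (0.42) and Tead4 (0.64) higher and Esx1 (-1.31) and Gata3 (-1.04) lower, but none passed without either E294K line or against both references together. No trophoblast gene was higher without FH-Mtgr1 A3 or C1. Tbx6 did not pass without either E294K line, and 1 of the fibroblast genes was lower then and 4 were lower without C3. Against both references together Tbx6, Tubb3, Thy1 and Loxl1 passed in the same direction. The summed RPKM of the list was 7.15 and 7.30 in the E294K lines and 7.29 to 9.86 in the FH-Mtgr1 lines for streak and mesoderm, and 36.5 to 41.9 and 20.8 to 42.1 for neural genes, of which Tubb3 made the largest part in the E294K lines. It was 41.3 to 44.9 and 36.7 to 55.0 for trophoblast genes and 15.3 to 15.6 and 25.9 to 32.9 for fibroblast genes. Afp and Ttr (visceral endoderm), Prl3d1 (trophoblast giant cells) and Col3a1, Lum and Postn (fibroblasts) were under 0.1 RPKM in each of the 5 libraries. The part of other cell types in the results was not tested.

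Epithelial genes differed in both directions, with 5 higher and 4 lower of 15 (median 0.14), against 22.6 and 17.6% of all genes. Krt18, a simple keratin, was at 65.4 and 63.3 RPKM in E294K, 159, 176 and 231 RPKM in FH-Mtgr1 and 52.2 RPKM in wt (-1.52), while its partner Krt8 was at 62.99 and 62.97 RPKM in E294K, 52.2, 56.998 and 62.02 RPKM in FH-Mtgr1 and 22.9 RPKM in wt and did not pass (0.14). The E294K lines were near the wt library in Krt18 and well above it in Krt8. Cldn4, a claudin of tight junctions, was lower, at 114 and 124 RPKM in E294K, 273, 229 and 414 RPKM in FH-Mtgr1 and 195 RPKM in wt (-1.31). The desmosome genes Dsp (1.15) and Jup (1.13) were higher. Cdh1 (E-cadherin), the adhesion protein of mESCs, was at 148 and 149.7 RPKM in E294K, 177, 211 and 102 RPKM in FH-Mtgr1 and 153 RPKM in wt, with overlap through C3 (-0.07). Against both references together 3 epithelial genes (Dsp, Jup and Krt19) were higher and Cldn4 lower, without either E294K line 2 were higher, and without C3 7 were lower. Twist1, a mesenchymal factor, was lower (-1.65), and Fn1 (1.35) and Cdh2 (1.31) were higher, and Twist1 and Cdh2 passed against both references together. Contractile and serum response genes had 3 higher and 4 lower of 17 (median -0.12), shares near the 22.6 and 17.6% of all genes. None was higher and 2 were lower without either E294K line, 5 were higher without FH-Mtgr1 C1, 5 higher and 8 lower without C3, and none passed against both references together. Ctgf, a secreted target of Yap, was at 14.9 and 12.6 RPKM in E294K, 40.5, 39.4 and 29.5 RPKM in FH-Mtgr1 and 14.5 RPKM in wt (-1.37). Against the wt library the E294K lines were above in 13 of 17 of these genes, among them Tagln (transgelin), at 25.997 and 20.9 RPKM in E294K, 15.7, 19.3 and 11.2 RPKM in FH-Mtgr1 and 2.74 RPKM in wt, which passed against the wt library and not against the FH-Mtgr1 lines (0.61). Over all 12339 genes tested, both E294K libraries were above the wt library in 4679. The median difference of the contractile list from the wt library was 0.45 for the E294K lines and 0.84 for the FH-Mtgr1 lines. The rise over the wt library was thus not particular to the E294K lines. Basement membrane genes had 5 higher and none lower of 10 (median 0.45), against 22.6 and 17.6% of all genes. Nid1 (1.57), Lama1 (1.06) and Lamc1 (1.02) led the list, while the collagens Col4a1 and Col4a2 did not pass. Lama1 and Hspg2 were also higher against both references together.

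Collagens and integrins had 4 higher and 1 lower member of 11 (median 0.32), against 22.6 and 17.6% of all genes. Col18a1 (0.66), whose product is cut to endostatin, and Itgb5 (-0.41), an integrin chain, were among them, and no member passed without either E294K line or against both references together.

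The germline lists differed in direction. Of the primordial germ cell list 6 were higher and 1 (Dppa3) lower of 10 (median 0.58), against 22.6 and 17.6% of all genes. Hesx1, a homeobox repressor, was at 5.196 and 5.53 RPKM in E294K, 0.510, 0.497 and 0.898 RPKM in FH-Mtgr1 and 1.27 RPKM in wt (2.39). Prdm1 (Blimp1), the factor that specifies germ cells together with Prdm14, was at 4.07 and 3.95 RPKM in E294K, 2.24, 1.65 and 1.96 RPKM in FH-Mtgr1 and 4.46 RPKM in wt (0.89), with the wt library next to the E294K lines. Without either E294K line 1 member was higher and 1 lower, and against both references together 2 were higher (Hesx1 and Ifitm3) and none lower. Of the meiosis and genome defence genes 7 were lower and 1 higher of 21 (median -0.30), in all a share near the 40.2% of all genes. Over all genes 17.6% were lower and 22.6% higher. Tex101, a germ cell surface protein, was at 0.982 and 1.07 RPKM in E294K, 2.75, 4.25 and 5.22 RPKM in FH-Mtgr1 and 2.03 RPKM in wt (-1.54). Sycp3, a protein of the synaptonemal complex, was at 6.79 and 9.07 RPKM in E294K, 17.1, 17.2 and 28.7 RPKM in FH-Mtgr1 and 14.8 RPKM in wt (-1.32). Taf7l, a germ cell TFIID subunit, was at 0.881 and 1.201 RPKM in E294K, 3.297, 4.02 and 3.98 RPKM in FH-Mtgr1 and 3.39 RPKM in wt (-1.47), and Ddx4 (Vasa), a germ cell RNA helicase, at 3.998 and 4.12 RPKM in E294K, 8.52, 8.92 and 7.33 RPKM in FH-Mtgr1 and 9.73 RPKM in wt (-0.94). All E294K values were below the FH-Mtgr1 and wt values in these 4 genes. Both E294K libraries were below the wt library in 17 of 21 members, beside 6352 of all 12339 genes tested. Against both references together 6 members were lower and 1 (Tuba3a) higher. Leaving out either E294K line left 4 lower, and without C3 11.

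Genes of the 2-cell-like state, a rare state with transcripts of the early embryo, were near the filter. Of 33 genes of the list with values, 14 passed it, and over all genes 22.6% were higher and 17.6% lower. Of 14 tested 3 were higher and 1 lower (median 0.35), and none passed without either E294K line or against both references together. Zscan4c, which marks that state, was at 1.498 and 1.71 RPKM in E294K, 0.796, 0.828 and 0.173 RPKM in FH-Mtgr1 and 0.637 RPKM in wt (1.001). Both E294K values lay above the others, and all 6 were under 2 RPKM. The FH-Prdm14 lines were at 10.2 and 16.1 RPKM, and against them 13 of the 14 were lower and none higher (median -3.42), beside 21.7 and 15.1% of all genes. Close copies in the Zscan4 and Usp17 families may share reads, so single members are uncertain.

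Imprinted genes went both ways, with 4 higher and 6 lower of 19 (median -0.07), against 22.6 and 17.6% of all genes. Cdkn1c (p57), a maternally expressed inhibitor of cyclin-dependent kinases, was at 4.296 and 5.66 RPKM in E294K, 25.5, 25.7 and 24.03 RPKM in FH-Mtgr1 and 13.4 RPKM in wt (-2.23, SE 0.13). Peg10, a paternally expressed retrotransposon-derived gene, was at 183 and 197 RPKM in E294K, 65.003, 64.5 and 51.8 RPKM in FH-Mtgr1 and 119 RPKM in wt (1.65, SE 0.12). Its neighbour Sgce, paternally expressed as well, was lower, at 5.62 and 4.76 RPKM in E294K, 16.6, 18.05 and 17.01 RPKM in FH-Mtgr1 and 12.2 RPKM in wt (-1.64). The genes of this pair thus differed in opposite directions, each with the wt library between the groups. Grb10 (-1.09), Phlda2 (-0.75), Dlk1 (-0.71) and Ndn (-0.54) were lower and Igf2 (1.24), Nnat (1.06) and Peg3 (0.88) higher. Against both references together 3 were higher (Igf2, Peg10 and Nnat) and 4 lower (Cdkn1c, Sgce, Grb10 and Phlda2). Leaving out either E294K line left 3 lower.

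Metabolic genes gave mixed results. Of the glycolysis and hypoxia genes 3 were higher and 7 lower of 26 (median -0.05), in all a share near the 40.2% of all genes. Hk2, a hexokinase, was at 129.6 and 139 RPKM in E294K, 51.1, 52.4 and 47.2 RPKM in FH-Mtgr1 and 85.7 RPKM in wt (1.41). Aldoa, the aldolase further down the pathway, was lower, at 1332 and 1414 RPKM in E294K, 2635, 2458 and 2812 RPKM in FH-Mtgr1 and 1961 RPKM in wt (-0.94), and P4ha1 (-1.16) and Ndufa4l2 (-1.14), targets of hypoxia-inducible factors, were lower too. Without either E294K line 4 of the list were lower, and without C3 6 were higher. The count against both references together was 1 higher (Hk2) and 4 lower.

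Nuclear genes of the respiratory chain had 5 higher and 14 lower of 70 (median -0.08), against 22.6 and 17.6% of all genes, so fewer were higher than in the background and a share near it was lower. The direction turned with an adjustment for gene length, to 16 higher and 10 lower with a median of 0.08, and against both references together 1 was higher and 1 lower. Ndufb7 (-0.97) had the lowest value. Without E294K F10 or G6 none was higher and 2 or 3 were lower, without FH-Mtgr1 A3 8 were lower and without C3 8 were higher. Both E294K libraries exceeded the wt library in 59 of 70, beside 4679 of all 12339 genes tested. The median difference of the list from the wt library was 0.42 for the E294K lines and 0.56 for the FH-Mtgr1 lines. Both groups thus lay above the single wt library in this list.

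Cholesterol genes had 11 higher and 1 lower of 24 (median 0.31), against 22.6 and 17.6% of all genes. Both E294K libraries were below the wt library in 15 of 24 members and above it in 6. The median difference from the wt library was -0.17 for the E294K lines and -0.45 for the FH-Mtgr1 lines, so most members were lower than wt in both groups or in the FH-Mtgr1 lines. Sqle, the epoxidase of squalene, was at 43.9 and 47.3 RPKM in E294K, 21.98, 25.2 and 19.95 RPKM in FH-Mtgr1 and 34.1 RPKM in wt (1.02). The groups did not overlap and the wt library lay between them, unlike in the members in which it was above the E294K lines. Insig1, the sterol sensor that holds back the pathway, was lower (-0.62). Without E294K F10 or G6, 4 or 3 were higher and none lower, and against both references together 4 were higher and 1 lower.

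Of 18 replication-dependent histone genes none passed in either direction in limma (median 0.36), 1 had an unadjusted p under 0.05, and none passed in voom on the reads computed back. E294K F10 was above G6 in all 18, and FH-Mtgr1 C1 was the lowest of its group in all 18. Hist1h4d was at 46.8 and 31.9 RPKM in E294K, 64.6, 18.3 and 38.9 RPKM in FH-Mtgr1 and 26.4 RPKM in wt. The median was -0.04 without E294K F10 and 0.74 without E294K G6, so these genes turned on single libraries.

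By size of change, the genes highest in the E294K lines after Prdm14 were Khdc3, Lefty2, Jam2, Cobl, Ier3, Hmces, Tdh, Epas1 and Mir6516. Khdc3 (Filia), a protein of oocytes and mESCs that protects genome stability, was at 36.2 and 38.01 RPKM in E294K, 3.27, 4.86 and 6.06 RPKM in FH-Mtgr1 and 12.2 RPKM in wt (2.88, SE 0.22). It was at 215 and 184 RPKM in the FH-Prdm14 lines. Hmces, a sensor of abasic sites in DNA, was at 80.7 and 99.5 RPKM in E294K, 13.5, 13.7 and 19.6 RPKM in FH-Mtgr1 and 48.2 RPKM in wt (2.51). Tdh, the threonine dehydrogenase on which mESCs depend, was at 138 and 126 RPKM in E294K, 30.02, 21.5 and 18.9 RPKM in FH-Mtgr1 and 82.5 RPKM in wt (2.49). In Khdc3, Hmces and Tdh the wt library was between the groups and every E294K value exceeded it. Jam2, a junctional adhesion molecule, was at 14.5 and 15.2 RPKM in E294K, 1.85, 1.61 and 1.53 RPKM in FH-Mtgr1 and 6.87 RPKM in wt (2.83). Cobl, an actin nucleator, was at 13.8 and 16.5 RPKM in E294K, 2.21, 2.45 and 1.88 RPKM in FH-Mtgr1 and 12.3 RPKM in wt (2.55). Epas1 (Hif2a), a hypoxia-inducible factor, was at 12.7 and 13.6 RPKM in E294K, 1.68, 2.22 and 1.92 RPKM in FH-Mtgr1 and 7.69 RPKM in wt (2.49). The wt library was close to the E294K lines in Cobl and between the groups in the other two.

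Mir6516 was read on a gene model of 110 bases, at 92.5 and 122 RPKM in E294K, 20.4, 16.3 and 19.3 RPKM in FH-Mtgr1 and 6.87 RPKM in wt (2.48), with 8.802 and 7.08 RPKM in the FH-Prdm14 lines and 4.96 and 1.57 RPKM in Prdm14-/- cells. Mature miRNAs have no poly(A) tail, so these reads are not a measure of the mature miRNA. The wt 2i+LIF libraries, replicates of 1 condition, were at 13.63 and 187 RPKM, and the call was lost with all 15 or the 13 serum+LIF libraries in the fit. The mature sequences from RefSeq (GRCm38.p6) are shown with the seed, bases 2 to 8, in capitals, to identify the locus. The arms have different seeds.
mmu-miR-6516-5p: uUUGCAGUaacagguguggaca
mmu-miR-6516-3p: uCAUGUAUgauacugcaaacag

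The genes lowest in the E294K lines by the same rule were Bhlhe41, Ddit3, Dmrtb1, Cdkn1c, Hrc, Rhob, Pkdcc, Pmaip1, C330021F23Rik and Ifi30. Bhlhe41 (Dec2), a repressor of the circadian clock, was at 1.59 and 1.47 RPKM in E294K, 8.11, 8.604 and 13.3 RPKM in FH-Mtgr1 and 5.22 RPKM in wt (-2.34, SE 0.22). Dmrtb1, a DM-domain factor of spermatogenesis, was at 0.916 and 1.4000 RPKM in E294K, 5.86, 6.91 and 9.98 RPKM in FH-Mtgr1 and 3.19 RPKM in wt (-2.27). Rhob, a stress-induced small GTPase, was at 10.6 and 10.4 RPKM in E294K, 48.7, 49.1 and 35.1 RPKM in FH-Mtgr1 and 13.7 RPKM in wt (-2.01). In Rhob the wt library was near the E294K lines, and in Bhlhe41 and Dmrtb1 it lay between the groups. Ifi30, a lysosomal thiol reductase, was at 64.4 and 63.5 RPKM in E294K, 268, 244 and 246 RPKM in FH-Mtgr1 and 117 RPKM in wt (-1.97). Hrc, a histidine-rich calcium-binding protein, was at 1.804 and 1.65 RPKM in E294K, 9.28, 7.56 and 10.3 RPKM in FH-Mtgr1 and 3.76 RPKM in wt (-2.09), and Pkdcc, a secreted tyrosine kinase, at 1.69 and 2.099 RPKM in E294K, 9.601, 9.14 and 8.36 RPKM in FH-Mtgr1 and 3.34 RPKM in wt (-1.997). C330021F23Rik was at 2.52 and 2.71 RPKM in E294K, 13.9, 14.2 and 8.43 RPKM in FH-Mtgr1 and 4.703 RPKM in wt (-1.99). All FH-Mtgr1 values of these genes exceeded all E294K values, as the rule that named them required. Among the 20 genes of both rules, Cobl and Rhob did not pass against both references together.

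Lines named for the same clones carried wt FH-Prdm14 or no transgene. Against the FH-Prdm14 lines 4537 genes passed in limma (36.8%), 1859 higher (15.1%) and 2678 lower (21.7%), a split that an adjustment for GC content turned to 2386 higher and 2170 lower, and 2157 passed with all 15 libraries in the fit. Against Prdm14-/- cells 6410 passed (51.9%), 3186 higher (25.8%) and 3224 lower (26.1%), and 4172 passed with all 15 libraries in the fit. With adjustment for GC content the split against Prdm14-/- cells was 3103 higher and 3016 lower. Fold changes correlated with GC content at a Spearman rho of -0.39 against FH-Prdm14 and -0.43 against Prdm14-/- cells. In the main comparison the value was -0.03. Replication-dependent histone genes, whose transcripts mostly lack a poly(A) tail, moved with both comparisons, 17 of 18 being higher than in the FH-Prdm14 lines (median 2.18) and all 18 higher than in Prdm14-/- cells (median 2.86). Their part in these counts was not tested. The E294K mean lay between the Prdm14-/- and FH-Prdm14 means in 12 of 16 naive genes, and in 3720 of the 12339 genes tested. Of the naive genes 11 were lower and 1 higher than in the FH-Prdm14 lines (median -1.04), and 11 were higher and none lower than in Prdm14-/- cells (median 0.80). Klf4 was at 101 and 111 RPKM in the FH-Prdm14 lines and 15.6 and 15.8 RPKM in Prdm14-/- cells, with the E294K lines between them. Simple epithelial genes (none higher, 12 lower of 15) and contractile genes (none higher, 17 lower of 17) were lower than in Prdm14-/- cells. The comparisons share the E294K libraries and are not independent.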

How the data were processed

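Poly(A) RNA of mESC lines was sequenced in 15 libraries. The 11 ChIP-seq samples of the series were not analysed here. The authors aligned reads to mm9 with Tophat and RefSeq gene models, counted them with HTSeq and tested counts with DESeq2. The submitters' processing notes list both mm9 and GRCm38. The deposited values are RPKM per gene with the gene length for 24015 genes, and the sequencer of each library is not given in the sources used here. RPKM times length gave whole multiples of 1 read in 100% of values (tolerance 0.001). The depth of the 5 libraries was 12729580 to 21218414 reads on genes.

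Genes that reached an RPKM of 1 in 2 of the 5 libraries were kept, and log2(RPKM + 0.5) was fitted in limma 3.58.1 (R 4.3.3; lmFit, contrasts.fit, eBayes with trend), E294K minus FH-Mtgr1, with Benjamini-Hochberg adjustment at 0.05 over all genes tested. On this scale fold changes of low genes are understated. As the files hold RPKM, no count model was the main test, and voom on the computed reads was an alternative. Lines of clones F10 and G6 were fitted apart in 6 libraries. Lines of the same name are described as coming from the same parental clone, although Y-linked genes differed among them, so the clone block rests on the names. Their deviations from the group means correlated at 0.10 (E294K with FH-Prdm14), 0.05 (E294K with Prdm14-/-) and 0.32 (FH-Prdm14 with Prdm14-/-). The model was tested on simulated data drawn with the same dispersion for all genes and libraries. The spread of the groups here was unequal, so that test cannot show how many of the calls are sound. Named genes were the study's markers, the 10 largest changes in each direction with an adjusted p under 0.05, groups that did not overlap and a mean RPKM of at least 5, and the leading members of each list. The members and lists were chosen with earlier results of these data known. Sequences came from NCBIM37 and, for miRNAs, from RefSeq.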

Additional observations from a re-analysis of the deposited data

How the results depend on the processing

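The count of the main comparison, 4958 genes, moved by less than 1.5 times without the filter (4663), with an RPKM of at least 5 (3907), with a pseudocount of 0.1 (4931) or 1 (4969), with all 15 libraries (3546) or the 13 serum+LIF libraries (4557) in the fit, with median-of-ratios scaling (4938), with voom on the reads (5133) and with adjustment for GC content (5054) or, added after the data were seen, gene length (5160). It was 1554 with the FH-Mtgr1 and wt libraries together as reference and 15 with the wt library as the only reference. Leaving out 1 library gave 1379 to 7102, the lowest without E294K G6 (1391 without E294K F10), when the lone E294K line is assumed to vary like the other group, and the highest without FH-Mtgr1 C3. All 4958 called genes were also called without C3. No paired analysis was possible because the E294K and FH-Mtgr1 lines share no clone.

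With a replicate block for the parental clone, 5117 genes passed against FH-Prdm14 (4537 without the block) and 6893 against Prdm14-/- (6410), each within 1.5 times. With all 15 libraries in the fit these counts were 2157 and 4172, and leaving out 1 library gave 1401 to 2188 and 3088 to 7994. With the wt library as the only reference the log2 difference turned to -0.11 for Esrrb (adjusted p = 0.868) and to -0.48 for Klf2 (adjusted p = 0.745, limma, Benjamini-Hochberg), and the cause was not tested. Over the named genes of the main comparison 571 values kept direction and side of the threshold, 64 lost it, 3 gained it and 2 turned. Anxa3, Gata6, Klf2, Dnmt3b and Wnt8a lost the call without either E294K line.

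The single wt serum+LIF library gives no spread of its own. RPKM keeps no strand, and genes that share reads with a close copy are uncertain.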

Other observations

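Ribosomal protein genes, chosen by symbol after their values were seen, were lower in the E294K lines in 73 of 84 cases and higher in 3. Over all genes tested against the FH-Mtgr1 lines, 17.6% were lower and 22.6% higher. The median log2 fold change of the ribosomal protein genes against the FH-Mtgr1 lines was -0.61. With an adjustment for gene length the median was -0.44. With both references together none was lower and 1 was higher, and against the wt library alone none passed in limma and the median was 0.29. Without E294K F10 or G6, 7 or 10 were lower. These genes are short and highly expressed, and their share of reads was higher in the FH-Mtgr1 libraries than in the E294K and wt libraries.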
